A study of Mus musculus with 2 samples.

Results

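Ephrins and their Eph receptors, Slits and their Robo receptors, and netrins with the Dcc and Unc5 receptors are cell-surface and secreted proteins that steer growing axons. Where 38 genes of these families lie relative to chromosome boundaries was described here in mature olfactory sensory neurons of adult mice. The genes were chosen by name and family, with earlier results of these data known. They were 9 EphA and 5 EphB receptor genes, 5 ephrin-A and 3 ephrin-B genes, and 3 Slit and 4 Robo genes. The others were 5 netrin receptor genes, 2 netrin genes and 2 netrin-G genes. All 38 were found among the 21755 protein-coding genes of GENCODE M21 (build GRCm38) on the 20 chromosomes analysed.

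Per the labels, the mice were of mixed sex and unspecified strain, and their neurons were isolated from olfactory epithelium by flow sorting. Ldb1, which encodes a cofactor that holds transcription factors together at enhancers, was conditionally deleted by Omp-Cre, so the loss starts only in neurons that already express the maturity gene Omp. In situ Hi-C reads contacts between DNA segments that lie close in the nucleus, and it was done on 2 biological replicates of 1000000 cells each, fixed in 1% formaldehyde and cut with DpnII. The submitters combined both replicates into 1 contact matrix and called 1 list of 7610 boundaries on it, 4022 of them strong. A boundary is a 5 kb bin that few contacts cross, and its strength is the authors' own score, at least 0.5 for the strong class. The samples analysed here form 1 group without a control, so nothing here compares knockout with normal neurons. The pooled list has no replicate error, its sequencing depth is unknown, and it holds no expression level with which to check the cell type or the loss of Ldb1.

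Eph receptors are receptor tyrosine kinases. Most EphA receptors bind ephrin-A ligands, which a lipid anchor ties to the membrane, and most EphB receptors bind the transmembrane ephrin-B ligands. Secreted Slits repel axons through Robo receptors. Netrin-1 attracts axons through Dcc and repels them through Unc5 receptors, whereas netrin-Gs are anchored to the membrane and bind other partners. In the olfactory system, graded ephrin-A and EphA levels on sensory axons and Slit1 with Robo2 help to place axons in the olfactory bulb.

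Guidance genes were long and often isolated, and the share of their starts at a boundary was not distinguishable, within counting error, from that of genes like them. A transcription start site (TSS) no more than 10 kb from a boundary bin, or inside it, was counted as at that boundary. This held for 8 of 38 genes (21.1%, exact 95% interval 9.55 to 37.3%): Epha3, Epha4, Ephb1, Efna2, Efna5, Efnb2, Slit3 and Unc5b. The share was 14.3% over all protein-coding genes. Since these genes are long (median 87.8 kb, against 17.4 kb for all genes) and have few neighbours (median of 1 other TSS within 100 kb, against 3), each was also set beside its 200 nearest non-member genes in rank of length and of local TSS count. Those comparison genes gave 16.4%, which lies inside the interval of the 38 genes. The interval covers counting error only and treats genes as independent, which neighbouring paralogs are not. No test was run, because the list has no replicates.

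More of the 38 genes lay just outside that limit. Epha3 (9.18 kb) and Efna2 (9.48 kb) were the last inside it, and Epha10 (10.9 kb), Epha5 (12.6 kb), Robo2 (13.2 kb), Ntng1 (14.0 kb), Ntn1 (14.2 kb) and Ephb3 (14.8 kb) were the next. With 25 kb as the limit 16 genes counted (42.1%, exact 95% interval 26.3 to 59.2%), against 26.5% of all genes and 28.5% of comparison genes. With 50 kb it was 23 genes (60.5%), against 45.3% and 46.1%. With 15 kb, a limit set after these values were seen, it was 14 genes (36.8%, exact 95% interval 21.8 to 54.0%), against 18.5% and 20.4%. Starts from RefSeq put 11 genes within 15 kb, the longest coding transcripts 13 and the nearest coding transcripts 15. These 3 counts have no matching share of other genes here. In the bin itself lay 1 TSS, that of Efna5, which is 2.63% against 3.86% and 4.12%. The median distance was 36.3 kb (95% interval of the median 14.2 to 65.6 kb), against 55.6 kb for comparison genes and 56.6 kb for all genes.

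**Figure D1:**
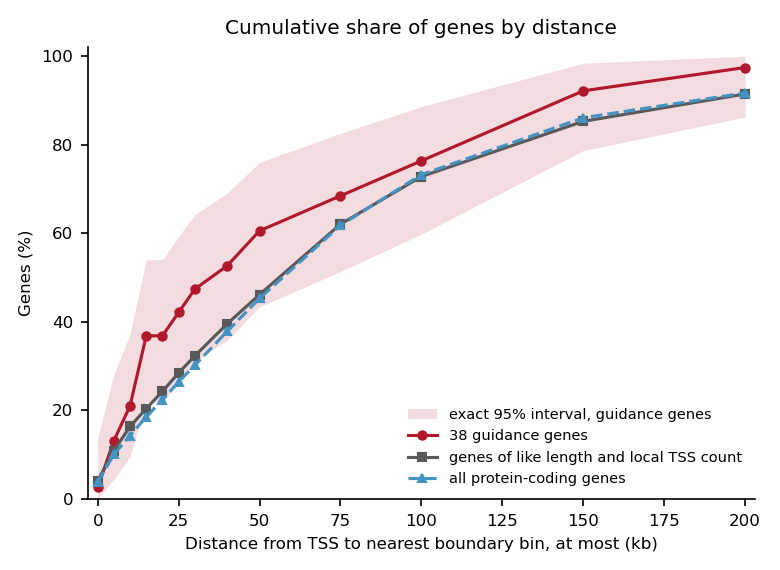
Share of genes (y axis, %) whose TSS lies within a given distance of the nearest boundary bin (x axis, kb). Red circles are the 38 guidance genes with their exact 95% interval shaded, grey squares the genes of like length and local TSS count and blue triangles all protein-coding genes. The red line runs above the others from 5 kb on, and the gap is widest at 15 kb (36.8% against 20.4% and 18.5%).

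Most of the boundaries at these starts were weak. Of the 8 genes at a boundary, 3 had a strong one (Epha4, Efna2 and Efna5). Counting strong boundaries alone, 3 genes (7.89%) had one within 10 kb, against 9.3% of all genes and 9.08% of comparison genes. The 38 genes had 34 distinct nearest boundaries, 19 of them strong, since neighbouring members shared some. The median strength of the nearest boundary per gene was 0.554 (95% interval 0.413 to 0.887), against 0.589 for comparison genes and 0.659 for all genes. Of the 16 genes within 25 kb, the boundary lay upstream of the TSS in 11, on the side of the gene body in 4 and over the TSS in 1. Upstream placement thus made up 68.8%, against 47.7% of all genes and 55.2% of comparison genes within 25 kb. No interval was computed for this share of 16 genes, so it is not read as a preference.

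**Figure D2:**
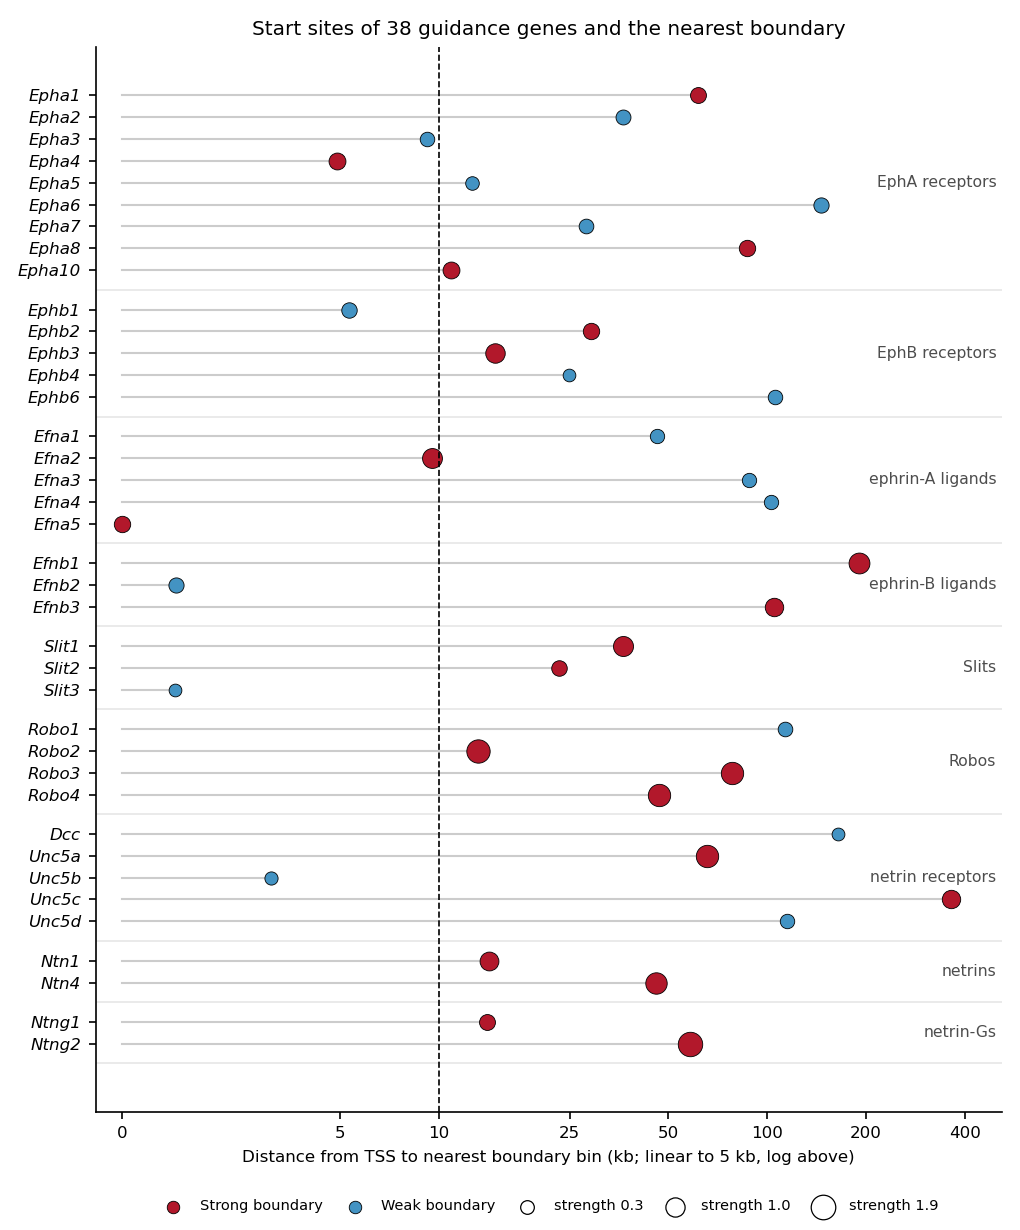
Distance from the TSS of each of the 38 guidance genes to its nearest boundary bin (x axis, kb, linear to 5 kb and logarithmic above), grouped by role. Each point is 1 gene, red for a strong and blue for a weak boundary, with an area that grows with strength, and the dashed line marks 10 kb. Efna5 stands at 0, Unc5c is the farthest at 365 kb, and the largest point is Ntng2 (1.88).

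Among EphA receptor genes, 2 of 9 were at a boundary. Epha4, whose receptor binds ligands of both ephrin classes, began 4.91 kb from a strong intergenic boundary upstream (0.679; chromosome 1, 77520001 to 77525000). Epha3 had a weak boundary in its own intron, 9.18 kb from the TSS (0.394; chromosome 16, 63850001 to 63855000). Both starts lie in sparse regions, with no other TSS within 100 kb. Epha5 and Epha7, which act in topographic mapping of axons, had weak boundaries 12.6 kb (0.292) and 28.1 kb (0.413) upstream. Epha10, a member without kinase activity, had a strong one 10.9 kb upstream (0.679), 2.83 kb from the TSS of Maneal. Epha2 had a weak boundary at 36.2 kb, and Epha1, the founding member of the family, a strong one at 61.7 kb over the taste receptor gene Tas2r126. Epha8 and Epha6 were the farthest, at 86.8 and 146 kb.

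Of the EphB receptor genes, 1 of 5 was at a boundary. Ephb1, needed for uncrossed retinal axons, began 5.31 kb from a weak boundary upstream (0.499; chromosome 9, 102360001 to 102365000). Ephb3 stood 14.8 kb downstream of a strong boundary (1.04). Ephb2, known from commissural axons and synapses, lay 29.0 kb from a strong boundary (0.616; chromosome 4, 136865001 to 136870000). That same bin was the nearest to Epha8, and it was the only boundary between the starts of these genes, 121 kb apart. In Ephb4, a marker of veins, the nearest boundary was at the other end of the gene, 24.9 kb from the TSS, and was close to the lowest score of the list (0.204). Ephb6, which lacks kinase activity, was 105 kb away.

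Of the ephrin-A genes 2 of 5 were at a boundary, and of the ephrin-B genes 1 of 3. Efna5, an ephrin-A of retinal and olfactory axon maps, was the only member with its TSS in a boundary bin (strong, 0.617; chromosome 17, 62880001 to 62885000). On the gene side the next boundary was 945 kb away. Efna2, which acts with Efna5 in the visual map, lay 9.48 kb from the strongest boundary of any gene at a boundary (1.10; chromosome 10, 80165001 to 80170000). This bin held the TSS of Cirbp, an RNA-binding protein gene, and Efna2 had 11 other TSSs within 100 kb. Efna1, Efna3 and Efna4 are neighbours on chromosome 3, with starts 15.1 to 56.9 kb apart and no boundary between them. They shared a weak nearest boundary over exons of Muc1 and Trim46 (0.375), at 46.1, 88.0 and 103 kb, and an interval of 265 kb with a weak left and a strong right end (0.898). For Efnb2, the arterial ephrin, a weak boundary lay 1.24 kb inside the gene over one of its exons (0.469; chromosome 8, 8655001 to 8660000). Efnb3, which keeps corticospinal axons from recrossing the midline, was 105 kb away. The X-linked Efnb1, with no other TSS within 100 kb, was 191 kb away.

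The 3 Slit genes lay between 1.22 and 36.3 kb from a boundary. Slit3 was the closest, and its boundary was weak, near the lowest score of the list (0.207; chromosome 11, 35115001 to 35120000). Slit2 had a strong boundary 23.1 kb upstream (0.512). Slit1, a ligand for Robo2 on olfactory axons, had a stronger one 36.3 kb upstream, over an exon of Arhgap19 (1.12).

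No Robo gene was at a boundary. The nearest boundary had a strength above 1.5 in 3 of 4, but Robo3 and Robo4 shared theirs. The share of other genes above 1.5 was not computed, so this is not read as a trait of Robo genes. Robo2, the receptor of dorsal olfactory axons, lay 13.2 kb from a strong intergenic boundary (1.68; chromosome 16, 74425001 to 74430000). This rests on the GENCODE start. In the RefSeq annotation, whose Robo2 model is longer, the distance was 128 kb and 4 boundaries lay within the span in place of 1. Robo3, which lets commissural axons cross the midline, and Robo4, expressed in blood vessels, lie end to end on chromosome 9. They shared a strong nearest boundary (1.501; 37350001 to 37355000) at 78.2 and 46.9 kb, with no boundary between their starts. Robo1 was 113 kb from a weak boundary, or 41.3 kb by its nearest coding transcript and 162 kb in RefSeq.

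Netrin receptor genes ranged from 3.42 to 365 kb. Unc5b, known from vessel guidance, was the closest, with a weak boundary upstream (0.251; chromosome 10, 60835001 to 60840000). Unc5a had its strong nearest boundary on the far side of the gene (1.51, 65.6 kb from the TSS), although another coding transcript starts 11.3 kb from a boundary. Unc5d and Dcc were 115 and 164 kb from weak ones. Unc5c, the gene of the rostral cerebellar malformation mouse, was the farthest of all 38 genes at 365 kb, and its nearest boundary lay at its own 3′ end. Ntn1, the gene of netrin-1, had a strong boundary 14.2 kb upstream (0.946), which became 28.2 kb with the RefSeq start. Ntn4, whose protein binds laminins in basement membranes, was 45.7 kb from a strong boundary close to Snrpf (1.35). Ntng1 had a strong boundary in its own intron, 14.0 kb from the TSS (0.555), although another coding transcript starts 5.51 kb from a boundary. Ntng2 had the strongest nearest boundary of all (1.88; chromosome 2, 29190001 to 29195000), at 58.0 kb.

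Boundaries overlapped many guidance genes, at a share near that of genes of like length and surroundings. The span overlapped a boundary in 16 of 38 genes (42.1%, exact 95% interval 26.3 to 59.2%), against 16.2% of all genes and 36.7% of comparison genes. Together the 38 spans met 22 boundaries in 8.33 Mb, and 17 of these bins lay wholly inside the gene. The density was 2.64 per Mb (95% Poisson interval 1.65 to 4.00), against 2.26 per Mb in comparison genes, 3.59 in all genes and 2.89 over the genome. The gene values also count bins that only touch the span, so they are not like the genome value. Over all genes they fell with length, from 9.57 per Mb under 20 kb to 2.08 at 500 kb or more. With bins wholly inside the gene the density was 2.04 per Mb, against 1.95 in comparison genes and 2.32 in all genes. Strong boundaries were 9 of the 22 (40.9%), against 44.3% in comparison genes, 59.6% in all genes and 52.9% of all boundaries. A strong one overlapped the span of 8 of the 38 genes, where the rate of comparison genes (20.2%) would give 7.665 genes. The share over all genes was 10.3%. The 16 genes with a boundary had a median length of 342 kb and the others 23.0 kb. The match in length is loose for long genes: comparison genes ran from 446 to 2271 kb for the 3 longest, from 428 to 1433 kb for Slit3 (587 kb) and from 85.2 to 1574 kb for Ephb2 (188 kb).

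**Figure D3:**
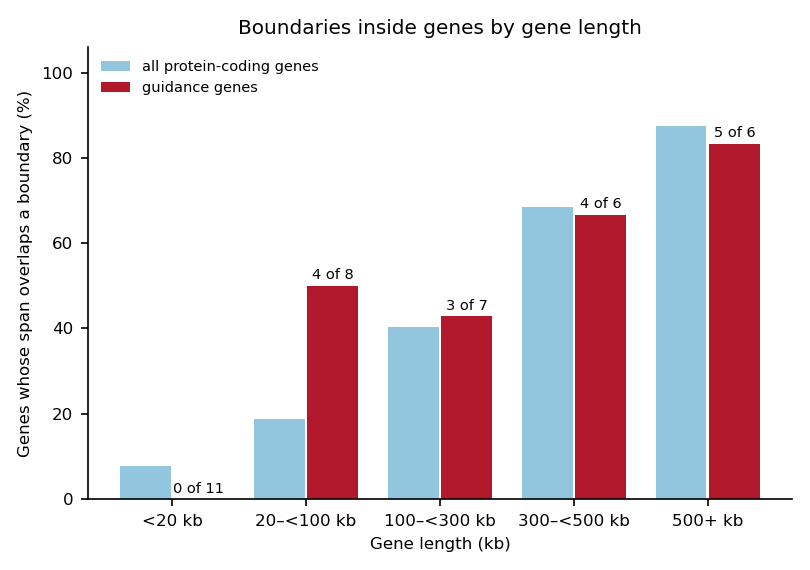
Share of genes whose span overlaps a boundary (y axis, %) by gene length (x axis, kb), for all protein-coding genes (light blue) and guidance genes (red, with counts). The share over all genes rises with each length class, to 87.4% at 500 kb or more. That of guidance genes goes from 0 of 11 to 5 of 6 with 4 of 8 and 3 of 7 between, and the shares differ most between 20 and 100 kb (18.7% against 4 of 8).

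Guidance genes of like length differed in how many boundaries they held. Epha6, which spans 952 kb, held 5 boundaries, the most of any member. They lay over introns and 1 exon, from 148 to 913 kb downstream of the TSS, and only the last was strong (1.15). Dcc, the longest gene at 1097 kb, held 2: a weak one 349 kb in (0.363) and a strong one over an exon at its 3′ end (0.560). Robo1 (738 kb) held 2 strong boundaries, in an intron at 299 kb (0.611) and over an exon at 684 kb (1.43). Unc5d held none in 573 kb, where its comparison genes averaged 1.28. Slit3, Robo2 and Ephb1 held 1 weak boundary each, in introns. Slit2, Epha5, Epha7, Epha4 and Ephb2 held none, with boundaries within 30 kb upstream of each start.

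**Figure D4:**
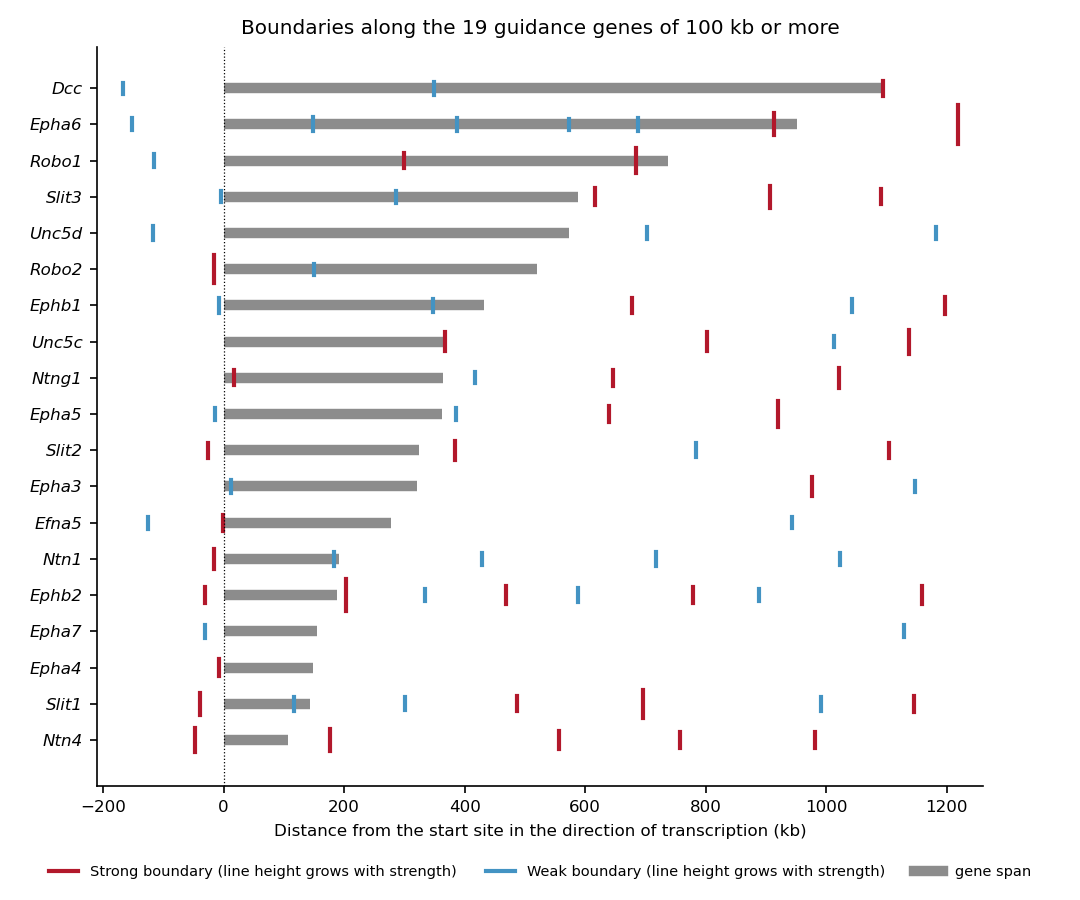
Boundaries along the 19 guidance genes of at least 100 kb. Grey bars are gene spans drawn from the TSS at 0 in the direction of transcription (x axis, kb), and vertical lines are boundaries, red for strong and blue for weak, taller with strength. Epha6 carries 5 boundaries and Unc5d none, and red lines close the spans of Dcc and Unc5c.

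Several genes of the netrin system ended at a boundary. A boundary lay within 10 kb of the 3′ end in 7 of 38 genes (18.4%), against 13.2% of all genes and 13.0% of comparison genes. Of these 7, 6 were among the 9 netrin, netrin-G, Dcc and Unc5 genes, whose own comparison genes averaged 14.0%. The remaining one was Ephb4, 1 of 29 ephrin, Eph, Slit and Robo genes. Unc5b (1.63), Ntng2 (1.88) and Unc5c (0.887) had the 3′ end in a strong boundary bin, and Dcc (1.37 kb, 0.560) and Unc5a (8.98 kb, 1.51) had a strong one nearby. At Ntn1 it was weak (5.64 kb, 0.458). Unc5d, Ntn4 and Ntng1 ended 127, 67.8 and 50.04 kb away. The grouping of the netrin genes for this count was chosen after the values were seen, so it has no test. The count was also 6 of 9 with RefSeq genes and with the longest coding transcript. At 25 kb it was 6 of 9, but 5 of the 29 other genes and 26.6% of all genes then counted too. With strong boundaries alone it was 5, against 8.60% of all genes, and in the bin itself 3, against 2.63%.

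**Figure D5:**
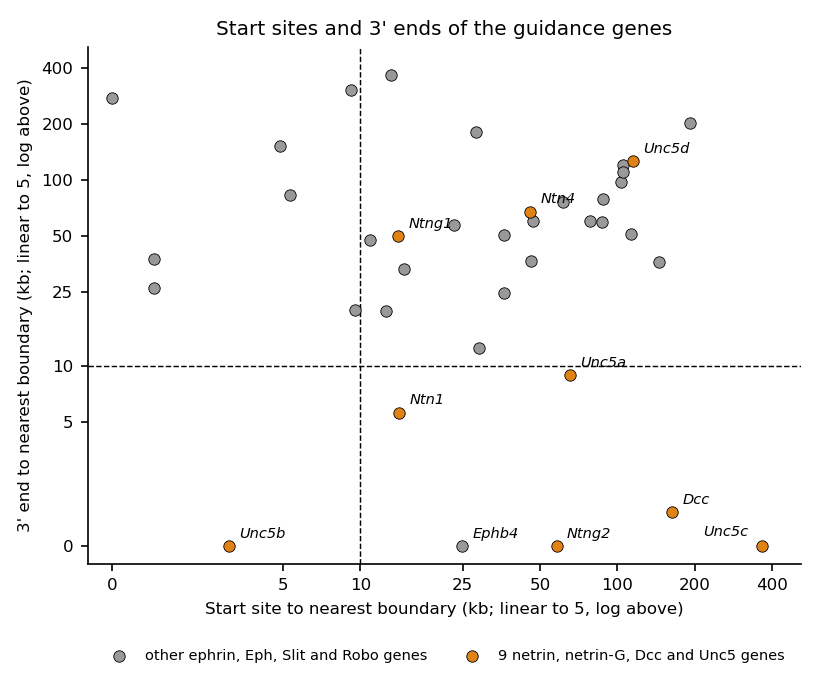
Distance from the start site (x axis) and from the 3′ end (y axis) of each guidance gene to the nearest boundary, in kb on axes that are linear to 5 kb and logarithmic above, with dashed lines at 10 kb. Orange points are the 9 netrin, netrin-G, Dcc and Unc5 genes and grey points the 29 ephrin, Eph, Slit and Robo genes. Below the horizontal line lie 6 orange points and 1 grey one, Ephb4.

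Many guidance genes had the only protein-coding TSS in the interval between boundaries around their start. Such an interval need not hold the whole gene. It ended inside Epha6 148 kb from the TSS and inside Dcc 349 kb from the TSS. For 20 of 38 (52.6%, exact 95% interval 35.8 to 69.0%) no other protein-coding TSS lay between the boundaries on either side of their own TSS, against 8.9% of all genes and 33.4% of comparison genes. This measure, too, was chosen after the data were seen. The ratio to comparison genes was 1.57, and 1.51 when these were matched on TSSs within 500 kb. The 20 were Epha3 to Epha7, Ephb1 to Ephb3, Efna5, Slit1, Slit3, Robo1, Robo2, Dcc, Unc5a, Unc5b, Unc5d, Ntn1, Ntn4 and Ntng2. The intervals of the 38 genes had a median width of 280 kb, against 275 kb for all genes and 305 kb for comparison genes. The widest belonged to Epha4, whose interval of 1910 kb ran between boundaries of 1.88 and 0.679, then Epha7 (1160 kb), Ntng1 (1025 kb), Efna5 (945 kb) and Unc5d (820 kb). Unc5b had the narrowest, 75 kb between boundaries of 1.63 and 0.251 over its 3′ end and upstream of its TSS.

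Neighbouring members with starts up to 56.9 kb apart shared intervals, and those with starts 121 kb or more apart did not. Epha8 and Ephb2, at 121 kb, had 1 strong boundary between them (0.616). No boundary separated the starts of Efna1, Efna3 and Efna4 or those of Robo3 and Robo4. Robo1 and Robo2 face each other on chromosome 16 with starts 2104 kb apart and 846 kb between their spans. The 3 boundaries between their starts all lay inside the genes, and the widest gap between them, 1270 kb, took in both 3′ ends. Epha1 and Ephb6, 768 kb apart on chromosome 6, had 2 boundaries between them, and Efnb3 and Ntn1, 1159 kb apart on chromosome 11, had 7.

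CTCF stops cohesin as it extrudes chromatin loops, and its 12-base consensus was searched on both strands. A match is a sequence and not a binding measurement. It occurred within 10 kb of 10 of the 34 nearest boundaries (29.4%) and of 8 of the 22 boundaries that overlap guidance genes (36.4%), against 24.4% of all boundaries and 11.02% of 25 kb tiles of the genome. Of the 11 distinct matches near the nearest boundaries, 3 were in the bin, 7 pointed away from it and 1 pointed toward it, read along the strand of the match. Directions were not counted over all boundaries, so this is not read as a trait of guidance genes. Near the boundary in the intron of Ntn1, a match 2.58 kb outside the bin pointed toward it. Shown are the matches at Efna2 and Slit3, the 2 genes at a boundary that had one, and the nearest match at each strong boundary inside Robo1 and Epha6 and across the 3′ ends of Unc5b, Unc5c and Ntng2. They are taken from the GRCm38 sequence, 5′ to 3′ on the strand of the match, with the consensus in capitals and 9 bases on either side.
Efna2 (chr10:80175687-80175698, plus strand, 3.79 kb from the TSS): aactaattgCCACCAGGTGGCagccacata
Slit3 (chr11:35119595-35119606, plus strand, in the bin): cttttctggCCACCAGAGGGCgatggcggc
Unc5b (chr10:60760642-60760653, minus strand, in the bin at the 3′ end): agaaactaaCCACTAGATGGCgcccgaaaa
Unc5c (chr3:141831367-141831378, minus strand, in the bin at the 3′ end): tgtggcaggCCACTAGATGGCaccaggcac
Ntng2 (chr2:29200113-29200124, plus strand, 5.11 kb from the bin at the 3′ end): aaccatttgCCAGTAGAGGGCgctcaaagc
Robo1 (chr16:72985368-72985379, minus strand, 4.62 kb from the bin): tttccacctCCACTAGGTGGCaggtggctc
Epha6 (chr16:59683597-59683608, plus strand, 6.39 kb from the bin): acccttgtgCCACTAGATGGCggtagagaa
Robo1 (chr16:72605259-72605270, minus strand, in the intronic bin): gcacggtttCCACTAGAGGGCagtcgtttg
The Efna2, Ntng2 and first Robo1 matches lay outside their bins and pointed away from them, and the Epha6 match pointed toward its bin. At Slit3 the match lay 1.62 kb from the TSS, in a bin of low strength (0.207).

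Promoters of guidance genes held more GC and CpG than the median promoter. A RefSeq promoter (300 bases, from 250 before the start) within 1 kb of the GENCODE TSS was found for 31 members and 14239 protein-coding genes. Median GC was 65.0% in members, from 50.3% in Robo4 to 84.3% in Epha8, and 58.0% over all genes. CpG-rich promoters (GC of at least 50% and an observed to expected CpG ratio of at least 0.6) made up 22 of 31 (71.0%), against 51.9%. The 8 members at a boundary had a median GC of 71.0% and the other 23 of 64.7%. The 8 ran from 55.7% in Ephb1 to 78.3% in Slit3. No interval or like split over all genes was computed, so this is not read as a difference. No member promoter held the CTCF consensus, which 0.618% of all promoters did. The 250 bases before the start are shown for the 3 genes at the strongest boundaries, from RefSeq (GRCm38.p6), with CpG in capitals.
Efna2 (chr10:80179232-80179481, plus strand): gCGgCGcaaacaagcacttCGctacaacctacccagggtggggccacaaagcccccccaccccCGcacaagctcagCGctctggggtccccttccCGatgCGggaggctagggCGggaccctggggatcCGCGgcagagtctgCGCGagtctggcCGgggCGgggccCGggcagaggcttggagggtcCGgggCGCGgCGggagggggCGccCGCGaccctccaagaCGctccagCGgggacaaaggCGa
Epha4 (chr1:77515089-77515338, minus strand): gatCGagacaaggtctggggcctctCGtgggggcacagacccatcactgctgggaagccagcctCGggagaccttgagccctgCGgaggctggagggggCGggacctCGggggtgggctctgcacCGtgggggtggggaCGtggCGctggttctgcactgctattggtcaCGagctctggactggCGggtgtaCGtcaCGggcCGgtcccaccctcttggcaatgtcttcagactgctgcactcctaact
Efna5 (chr17:62881318-62881567, minus strand): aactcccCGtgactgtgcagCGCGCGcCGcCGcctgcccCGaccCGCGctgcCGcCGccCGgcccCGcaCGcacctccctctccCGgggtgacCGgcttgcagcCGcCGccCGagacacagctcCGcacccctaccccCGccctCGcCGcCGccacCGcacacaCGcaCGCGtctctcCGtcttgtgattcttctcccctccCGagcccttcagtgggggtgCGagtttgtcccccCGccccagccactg
The stretch of Efna5, which lies inside the boundary bin, held 32 CpGs, that of Efna2 25 and that of Epha4 14.

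A list of 71 other guidance genes (co-receptors, further ligands and intracellular effectors) lay at boundaries at nearly the share of genes like them. Of these, 11 had the TSS at a boundary (15.5%, exact 95% interval 8.0 to 26.0%), against 15.4% of their own comparison genes and the 14.3% of all genes, and 5 of the 11 boundaries were strong. Within 25 kb were 21 (29.6%), against 26.5% of all genes. A boundary overlapped 27 of the 71 genes, where their comparison genes gave 24.1 and the share over all genes was 16.2%. Rhoa, the GTPase that contracts the growth cone, had its TSS in a strong boundary bin (1.13). Evl, an actin regulator, was 9.72 kb from one of 0.870 and Sipa1l1 4.32 kb from one of 0.687. Dock1 (289 kb), Anks1b (191 kb) and Flrt3 (191 kb) were the farthest.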

How the data were processed

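In situ Hi-C was performed on 2 biological replicates of sorted neurons. The authors combined the contacts of both and called boundaries on the pooled matrix, per the labels; the build, GRCm38, is per the submitters' processing notes. The only file used is that deposited list of 5 kb bins, whose strength is a score on the authors' own scale. Caller, settings and sequencing depth were not given in the sources used here.

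Distances run from the gene's 5′ end in GENCODE M21 to the nearest edge of a bin (0 inside). No test was run, since a pooled list has no replicates. Counts and medians stand beside those of all protein-coding genes and of 4631 distinct comparison genes, with 95% exact binomial, Poisson or order-statistic intervals for counting error. All 38 members were named. Of the 71 other guidance genes the rule named the 3 at the strongest boundaries and the 3 farthest. Sequences were shown for members at a boundary; those at boundaries overlapping Unc5b, Unc5c, Ntng2, Robo1 and Epha6 were added after their values were seen. Members, lists and measures were chosen with earlier results of these data known. Distances and overlaps were tested on simulated data. Tools were scipy 1.17.1, matplotlib 3.10.9, pandas 2.3.3 and numpy 2.4.6 under Python 3.11.15.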

Additional observations from a re-analysis of the deposited data

How the results depend on the processing

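No paired analysis was possible because the study has a single group. With boundaries called after pooling, neither replicate can be left out. Of 76 values recomputed under other settings, 68 stayed within the interval of the reported value or, for counts, within 1.5 times of it. So did 23 of 25 more under settings added after the data were seen. This criterion is wide: ratios to comparison genes that fell from above 1 to below it, such as 0.639, 0.870 and 0.917, counted as staying. Many settings also gave both a value and its ratio. With the TSS in the bin itself 2.63% of guidance genes counted as at a boundary, within 25 kb 42.1% and within 50 kb 60.5%. The ratio of this share to comparison genes, 1.29 at 10 kb, ran from 0.639 in the bin to 1.80 at 15 kb. Counting strong boundaries alone, the share was 7.89% (ratio 0.870), 8 genes overlapped a boundary and the density was 1.08 per Mb. The median distance was then 82.8 kb, and 12 genes had the only TSS between their flanking boundaries. Comparison genes were counted on the same strong boundaries. The ratios to them were 1.04 for genes overlapping a boundary, 1.08 for density, 0.682 for median distance and 2.11 for the only TSS. Matched on local TSS count alone, the ratio of genes with an intragenic boundary to comparison genes was 1.85, against 1.15, since length was no longer matched. With bins wholly inside the gene it was 0.917. For 3′ ends of netrin-system genes, 3 of 9 lay in the bin itself. The ratio of the median distance to that of comparison genes stayed between 0.568 and 0.747 under the alternatives tried. A list from pooled contacts limits every value to 1 placement of boundaries.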

Other observations

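Strong boundaries that overlap the longer guidance genes stood mostly near the 3′ end. In the 22 members of at least 50 kb, 6 of 9 strong boundaries had their centre past 90% of the gene span, in Epha6, Robo1, Dcc, Unc5b, Unc5c and Ntng2. Of these 6 bins, 3 lay wholly inside the gene, and those of Unc5b, Unc5c and Ntng2 straddled the 3′ end. The centres at Unc5b and Ntng2 lay beyond the gene, at 100.1% and 103.5% of its length. Of the 11 weak boundaries, 1 had its centre past 90%, in Ntn1. The boundaries of Dcc, Unc5b, Unc5c, Ntng2 and Ntn1 were already counted above among 3′ ends of the netrin system, so the 2 observations are not separate. In comparison genes of at least 50 kb, each counted as often as it served, 21.8% of strong and 9.73% of weak overlapping boundaries lay there, and in all genes of at least 50 kb 24.3% and 17.0%. The remaining strong ones were at the TSS of Efna5, in the intron of Ntng1 close to its start and in the first part of Robo1. This pattern was noticed in the values and has no test, and with 9 boundaries each one moves the share by more than 10 percentage points.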
